A study of Mus musculus with 8 samples.

Results

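Interferon-stimulated genes and genes of the MHC class I pathway were followed in mouse 3T3-L1 adipocytes with and without overexpression of the microRNA miR-690. The members were 39 gene symbols listed by role: interferon response transcription factors, RNA sensors, antiviral effectors, guanylate-binding proteins, ADP-ribosylation and ubiquitin factors, other interferon-induced genes, and MHC class I with its peptide-loading machinery. Of these, 34 were rows of the deposited table of 10663 entries, and all 34 passed the filter on low values (at least 0.5 CPM, a gene's reads scaled to the total of its library, in at least 4 of the 8 libraries). Ifih1, Mx1, Rnf213, Oas1a and Rsad2 were not analysed here.

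3T3-L1 is a mouse fibroblast line that can be differentiated to adipocytes in the dish. By their labels, 4 RNA sequencing libraries are controls and 4 are named miR-690oe. Every library, controls included, carries the same treatment entry of a miR-690 mimic at 5 pM, and the labels leave unsaid what was given to control cells. The labels give no age, genotype or other agent by which the groups differ. Whether replicate libraries stem from separate cultures is not in the labels. The p-values therefore cover the spread among the libraries alone, and that spread could be technical.

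Interferons are secreted proteins that cells release when they sense viral nucleic acid. Type I interferon signals through receptor-bound JAK kinases to a complex that includes STAT2 and IRF9 and binds the interferon-stimulated response element (ISRE) in the promoters of interferon-stimulated genes. Type II interferon acts on the gamma-activated site (GAS), and IRF1 and other IRF family members bind ISRE-like elements. The products include RNA sensors such as RIG-I, proteins that block viral replication or release, and the MHC class I molecules that present peptides to T cells. Adipocytes and their precursors respond to interferon, and these genes are also transcribed at a low level without added interferon.

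The promoters of the members were read from a RefSeq table (GRCm38.p6) that gives 250 bases before to 50 bases after each start. Windows were found for 29 of the 34 members. An ISRE core, GAAANNGAAA or on the other strand TTTCNNTTTC, was present in at least 1 window of 13 of the 29 members (44.8%), against 3.54% of the 8529 genes of the table with a window. Counted by window, it was in 36.1% of 36 member windows and 3.44% of all 32851 promoters of the same length. A GAS match, TTCNNNGAA, which reads the same on both strands, was present in 8 of the 29 (27.6%), against 8.11% of those genes, and in 22.2% of member windows against 8.30% of all promoters. Both motifs occurred in 4 members, and an ISRE match shared bases with a GAS match in Bst2 only, over 3 bases. A match is a description of the letters in these windows and says nothing of binding.

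The windows of the 5 called members with an ISRE match (Stat2, Irf2, Gbp7, Bst2 and B2m) and of Isg15, the member with the most matches, are shown because the ISRE is the element on which type I interferon signalling acts. Capitals mark the ISRE and GAS matches. They lie at chr10:128270248-128270547 on the plus strand for Stat2, chr8:46739495-46739794 plus for Irf2, chr3:142530086-142530385 plus for Gbp7, chr8:71537423-71537722 minus for Bst2, chr2:122147437-122147736 plus for B2m and chr4:156200769-156201068 minus for Isg15.
Stat2: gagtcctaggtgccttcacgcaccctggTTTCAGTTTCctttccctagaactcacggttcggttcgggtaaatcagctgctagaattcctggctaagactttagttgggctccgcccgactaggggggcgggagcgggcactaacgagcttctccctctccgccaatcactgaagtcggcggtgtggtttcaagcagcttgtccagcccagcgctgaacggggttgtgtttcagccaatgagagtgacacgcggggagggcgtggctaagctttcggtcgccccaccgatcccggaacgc
Irf2: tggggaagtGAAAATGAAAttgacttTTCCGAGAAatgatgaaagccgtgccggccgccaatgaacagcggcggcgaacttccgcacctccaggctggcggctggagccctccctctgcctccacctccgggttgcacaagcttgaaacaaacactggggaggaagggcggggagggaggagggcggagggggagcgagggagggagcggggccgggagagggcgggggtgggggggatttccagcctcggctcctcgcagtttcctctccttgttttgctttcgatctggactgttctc
Gbp7: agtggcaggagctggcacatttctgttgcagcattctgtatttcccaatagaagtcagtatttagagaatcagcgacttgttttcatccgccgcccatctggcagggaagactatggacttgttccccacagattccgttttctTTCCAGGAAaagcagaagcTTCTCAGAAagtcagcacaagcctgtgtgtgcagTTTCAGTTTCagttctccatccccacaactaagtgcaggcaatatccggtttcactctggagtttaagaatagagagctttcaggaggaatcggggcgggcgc
Bst2: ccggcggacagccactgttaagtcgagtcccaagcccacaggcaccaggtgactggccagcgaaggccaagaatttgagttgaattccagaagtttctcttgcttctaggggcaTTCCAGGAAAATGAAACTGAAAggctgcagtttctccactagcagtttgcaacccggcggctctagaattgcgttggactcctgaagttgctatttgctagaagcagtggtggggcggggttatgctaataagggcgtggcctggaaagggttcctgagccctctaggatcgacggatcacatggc
B2m: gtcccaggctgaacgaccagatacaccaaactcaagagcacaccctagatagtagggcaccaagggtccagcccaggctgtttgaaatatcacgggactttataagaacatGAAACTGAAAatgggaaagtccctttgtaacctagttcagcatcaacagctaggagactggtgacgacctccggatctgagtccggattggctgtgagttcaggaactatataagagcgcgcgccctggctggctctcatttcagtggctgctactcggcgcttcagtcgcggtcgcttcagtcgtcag
Isg15: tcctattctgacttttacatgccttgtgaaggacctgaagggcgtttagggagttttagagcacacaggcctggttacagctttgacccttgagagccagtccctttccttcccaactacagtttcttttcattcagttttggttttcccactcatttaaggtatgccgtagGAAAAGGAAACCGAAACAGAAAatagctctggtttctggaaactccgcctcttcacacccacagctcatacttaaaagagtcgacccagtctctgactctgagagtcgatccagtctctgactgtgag
The Isg15 window held 3 overlapping ISRE matches that began 78, 72 and 66 bases upstream of the start. The Bst2 window held 2, at 130 and 124 bases upstream, and the GAS match at 136 bases that ran into the first of them. In Gbp7 the ISRE began 53 bases upstream and the GAS matches 106 and 87 bases upstream.

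The microRNA itself is listed by RefSeq (GRCm38.p6) at chr16:28599940-28599961 on the minus strand, and its seed, bases 2 to 8, is in capitals.
miR-690: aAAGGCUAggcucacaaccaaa
That the mimic holds these letters is not stated in the labels. The 7 bases that pair with the seed, TAGCCTT, were found in the annotated 3′ UTR of 5 of the 34 members (14.7%), against 11.9% of 10365 listed genes with an annotated 3′ UTR. The sites are shown in capitals with their neighbouring bases, from GENCODE M21 transcripts.
Trim25 (chr11:89017109-89017115, plus strand): actctctggggTAGCCTTcagatct
Eif2ak2 (chr17:78854072-78854078, minus strand): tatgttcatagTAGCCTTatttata
Eif2ak2 (chr17:78852904-78852910, minus strand): ctgcttggagtTAGCCTTgtagagg
Adar (chr3:89753356-89753362, plus strand): gcacccaggcaTAGCCTTggcgctg
Dtx3l (chr16:35927502-35927508, minus strand): taacgggtaaaTAGCCTTcccttag
Tapbp (chr17:33928341-33928347, plus strand): gtctctctatgTAGCCTTggctggc
Trim25 and Adar, which have such a site, were higher in miR-690oe. Eif2ak2 and Dtx3l had log2 fold changes above 0 and Tapbp below 0, and these 3 did not pass the test. In the fit without the trend over transcript length described below, Trim25 and Adar stood at 0.009 and -0.017 and were not called.

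As a group the members did not move one way in miR-690oe adipocytes. Stat2, Irf2, Trim25, Adar, Gbp7 and Parp14 were higher, and Irf1, Irf7, Bst2, Ifi35, Xaf1, Ifi27, B2m and H2-D1 were lower. Log2 fold changes are differences of mean log2(CPM + 0.5), miR-690oe over control. The changes were small, from 0.819 of the control level for Irf7 to 1.29 times for Gbp7. In the limma fit over 10658 genes with an adjusted p threshold of 0.05, 14 of 34 members (41.2%) were called, near the background of 43.4% of all genes. By direction, 6 members (17.6%) were higher against a background of 26.0%, and 8 (23.5%) were lower against 17.4%. The median log2 fold change was -0.021 over the members and 0.021 over all genes, and the median absolute log2 fold change was 0.133 for both. In bulk RNA, fewer expressing cells and less RNA per cell cannot be told apart for any member.

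The values of miR-690oe and control libraries did not overlap for 13 members (38.2%), against a background of 38.3% of all genes (22.4% higher and 15.9% lower). Irf2 and B2m were called with overlapping groups, and Gbp2 had groups that did not overlap and missed the threshold. The split of the calls depended on scaling. With trimmed-mean scaling it was 4 members higher and 12 lower, where 44.2% of all genes were called (22.1% higher and 22.1% lower). With median-of-ratios scaling it was 5 higher and 12 lower, where 44.1% of all genes were called (23.2% higher and 20.9% lower). With quantile normalization it was 3 higher and 11 lower, where 44.6% of all genes were called (20.7% higher and 23.9% lower). Over all genes the share of calls that were higher was 59.9%, and 46.4% with quantile normalization.

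**Figure D1:**
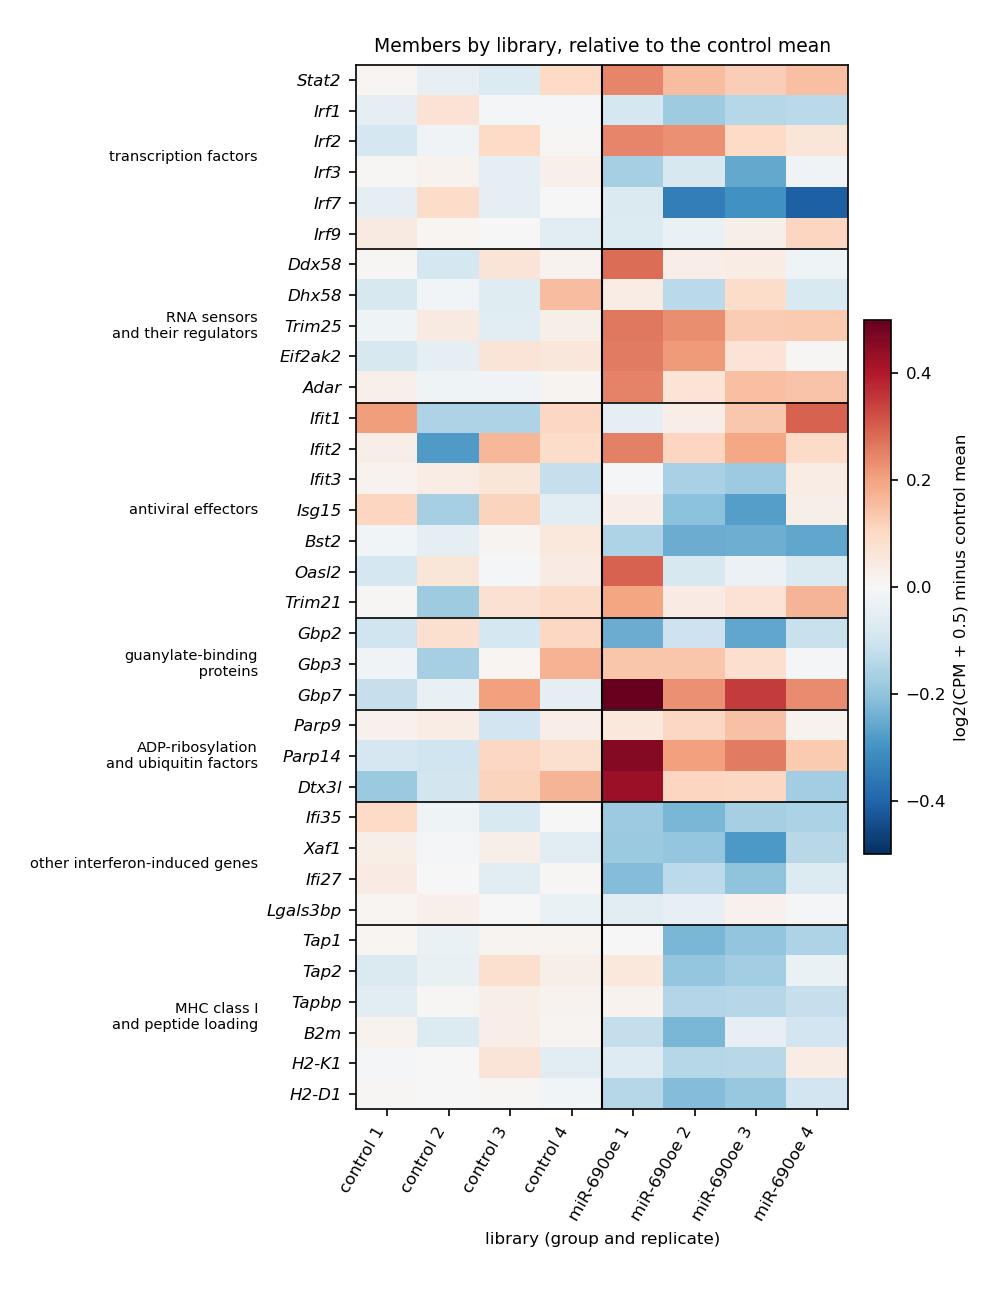
Each row is a member and each column a library; colour gives log2(CPM + 0.5) minus the mean of the 4 control libraries, on a scale from -0.5 to 0.5. Rows of both colours stand side by side among the transcription factors, antiviral effectors and guanylate-binding proteins. Mean differences were all negative for MHC class I and the other interferon-induced genes, and all positive for the ADP-ribosylation and ubiquitin factors. Among the RNA sensors they were positive except for Dhx58. Replicate 1 of miR-690oe is strongly shaded for Gbp7, Parp14 and Dtx3l, as is replicate 4 for Irf7.

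Fold changes in these data followed transcript length, for the members as for all genes. Transcripts of members called higher had a median length of 5602 nt and those called lower a median of 1732 nt, against 3096 nt over all genes. Over the 34 members the Spearman correlation of log2 fold change and transcript length was 0.756, and over 10610 genes it was 0.733, as a description across genes that share the same 8 libraries. Of 2185 genes over 5000 nt, 73.9% were higher, as were 4 of the 5 members of that length. Of 595 genes of up to 1000 nt, 62.5% were lower, as were 3 of the 4 members of that length. The slope of log2 CPM, centred per gene, on each doubling of length was -0.0651 to -0.096 in the control libraries and 0.0263 to 0.128 in the miR-690oe libraries, so that the groups did not overlap in it.

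**Figure D2:**
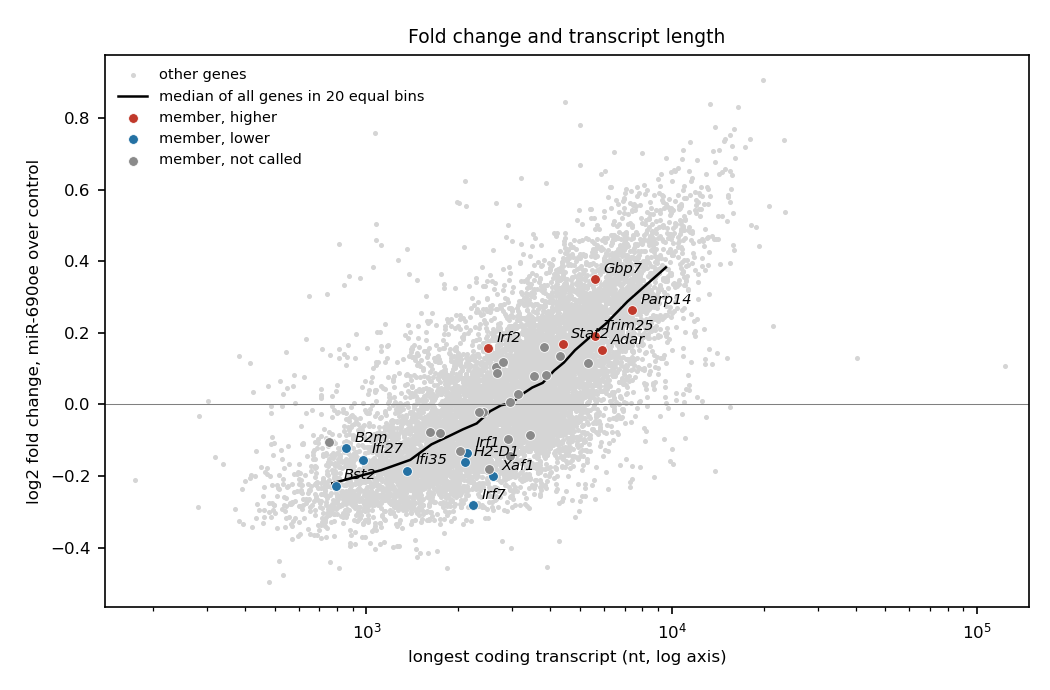
The log2 fold change of each gene (vertical axis) is plotted against the length of its longest coding transcript (horizontal log axis, nt); grey points are other genes, the line is their median in 20 bins of equal gene number, and coloured points are members. The members called higher lie between 2497 and 7417 nt and those called lower between 792 and 2597 nt, on the same rising trend as the other genes.

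When a spline trend over transcript length and GC content was removed from each library, 1 member, Xaf1, was called, and it was lower, against a background of 16.5% of all genes called (7.37% higher and 9.09% lower). At an unadjusted p under 0.05 in that limma fit, 1 member, Irf2, was above and 5, Irf7, Gbp2, Xaf1, Tap1 and H2-D1, were below the control level, against a background of 30.7% of all genes (14.3% higher and 16.4% lower). The length trend and the group cannot be told apart in this design, because every miR-690oe library has a slope above every control library. The called members are given below with their value in this second fit, named trend-removed.

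**Figure D3:**
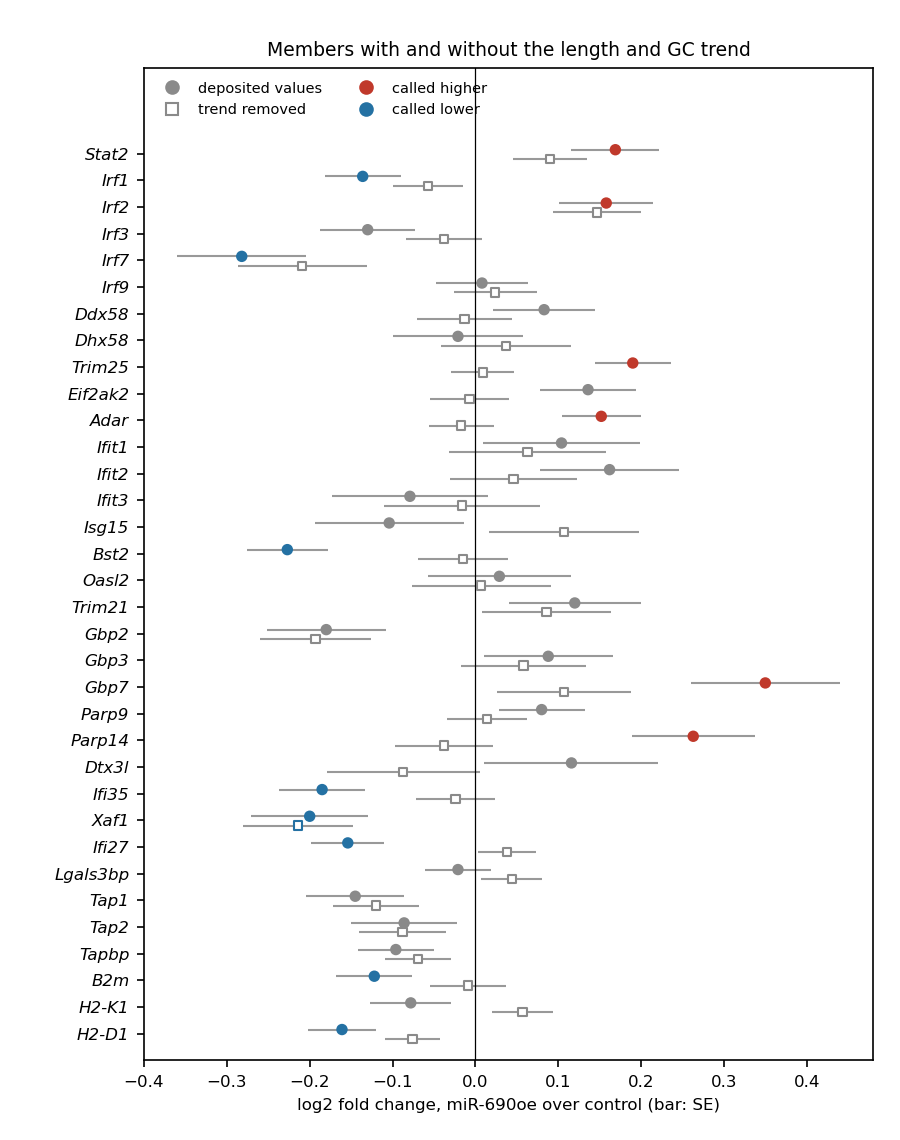
Log2 fold changes of all 34 members (horizontal axis, bar: SE) are plotted from the deposited values (filled circles) and after removal of the length and GC trend (open squares); red marks a call higher and blue a call lower at limma adjusted p under 0.05. The open squares lie closer to 0, with a median absolute value of 0.052 against 0.133, and the square of Xaf1 is the 1 that is coloured.

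Among the 6 transcription factors, Stat2 and Irf2 were higher, Irf1 and Irf7 lower, and Irf3 and Irf9 did not pass. In this class 33.3% were higher and 33.3% lower, against 26.0% and 17.4% of all genes. STAT2 and IRF9 are the interferon-specific subunits of the complex that binds the ISRE, IRF7 amplifies type I interferon production, IRF1 activates and IRF2 opposes transcription at shared elements. Stat2 measured 39.4, 38.05, 37.3 and 41.96 CPM in the control libraries and 46.5, 43.6, 42.7 and 43.5 CPM in the miR-690oe libraries, in order of replicate. All miR-690oe libraries of Stat2 lay above all controls, by a small margin over control replicate 4. On the log2 scale the difference for Stat2 was 0.17 ± 0.053 (SE, limma adjusted p = 0.0169), and 0.09 (limma adjusted p = 0.197) trend-removed. Irf9, its partner, measured 31.4, 30.6, 30.4 and 29.2 CPM in controls and 28.9, 29.7, 31.01 and 32.8 CPM in miR-690oe, where the groups lay within each other. The difference in log2 CPM of Irf9 was 0.008 with a 95% interval of -0.11 to 0.12 (limma adjusted p = 0.919).

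Irf7 had the largest decrease of any member. It measured 13.7, 15.1, 13.7 and 14.1 CPM in controls and 13.4, 11.01, 11.4 and 10.5 CPM in miR-690oe. Replicates 2 to 4 of miR-690oe stood well below the controls, and replicate 1 lay just under the lowest of them. This gave Irf7 a log2 fold change of -0.28 ± 0.078 (SE, limma adjusted p = 0.00792), and -0.21 (limma adjusted p = 0.0795) trend-removed. Irf1 measured 67.8, 73.9, 69.8 and 69.8 CPM in controls and 66.1, 62.04, 63.7 and 63.95 CPM in miR-690oe, with every miR-690oe library below every control. In log2 CPM the difference for Irf1 was -0.14 ± 0.046 (SE, limma adjusted p = 0.0247), and -0.06 (limma adjusted p = 0.376) trend-removed. Irf2 stood at 1.12 times the control level with overlapping groups, at a log2 fold change of 0.16 ± 0.057 (SE, limma adjusted p = 0.0331), and kept a similar value of 0.15 (limma adjusted p = 0.0712) trend-removed. Irf3, the factor that first switches on interferon genes after RNA sensing, had -0.13 ± 0.057 (SE, limma adjusted p = 0.0732). The calls of Stat2, Irf1 and Irf2 were each lost when single libraries were left out, Stat2 without control replicate 2 or 3, Irf1 without control replicate 2 or 4 or miR-690oe replicate 2, and Irf2 without control replicate 1, 2 or 4 or miR-690oe replicate 1 or 2, at adjusted p values of up to 0.0578, 0.0987 and 0.107.

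RNA sensors and their regulators tended to longer transcripts, with a median of 4313 nt. Of the 5 measured, 2 were higher (40%), against 26.0% of all genes and 42.2% of genes of 4000 to 5000 nt, the range of the class median. These 2, Trim25 and Adar, have longer transcripts, of 5590 and 5909 nt. Of all genes over 5000 nt 73.9% were higher. TRIM25 is a ubiquitin ligase that acts on RIG-I, and ADAR edits adenosines in double-stranded RNA and so keeps self RNA from being sensed. Trim25 measured 110.1, 115.1, 107.6 and 113.9 CPM in controls and 134.2, 131.4, 122.1 and 122.4 CPM in miR-690oe. The groups were clearly apart, with miR-690oe replicates 1 and 2 the highest. The limma fit put the log2 fold change of Trim25 at 0.19 ± 0.046 (SE, limma adjusted p = 0.00369), and 0.009 (limma adjusted p = 0.905) trend-removed. Adar measured 60.9, 58.9, 59.1 and 60.4 CPM in controls and 71.1, 62.7, 66.4 and 66.1 CPM in miR-690oe, all above the controls, with replicate 1 highest. On the log2 scale the difference for Adar was 0.15 ± 0.048 (SE, limma adjusted p = 0.0175), and -0.02 (limma adjusted p = 0.809) trend-removed, and its call was lost without control replicate 2 (limma adjusted p = 0.0517).

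Eif2ak2, which encodes the RNA-activated kinase PKR, measured 90.8, 93.02, 100.3 and 99.8 CPM in controls and 114.8, 111.2, 100.6 and 96.2 CPM in miR-690oe. Replicates 1 and 2 of miR-690oe stood above the controls, and replicates 3 and 4 among or just above them. Its log2 fold change of 0.14 ± 0.058 (SE, limma adjusted p = 0.0648) did not pass, and was -0.007 (limma adjusted p = 0.942) trend-removed. The RIG-I gene, listed as Ddx58, had 0.08 ± 0.062 (SE, limma adjusted p = 0.297), and Dhx58, which encodes the related helicase LGP2, had -0.02 ± 0.078 (SE, limma adjusted p = 0.853).

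Of the 7 measured antiviral effectors, Bst2 was lower (14.3%, against 17.4% of all genes) and the other 6 did not pass. BST2, also called tetherin, holds budding viruses at the cell surface. Bst2 measured 47.4, 46.3, 48.3 and 49.7 CPM in controls and 43.02, 40.2, 40.3 and 39.9 CPM in miR-690oe. Replicates 2 to 4 of miR-690oe agreed closely with each other, and replicate 1 lay between them and the controls. This gave Bst2 a log2 fold change of -0.23 ± 0.049 (SE, limma adjusted p = 0.00161), the lowest adjusted p of any member, and -0.01 (limma adjusted p = 0.882) trend-removed.

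Isg15 encodes a ubiquitin-like protein that is attached to other proteins after interferon, and is often read as a marker of the response. It measured 11.4, 9.302, 11.4 and 10.1 CPM in controls and 10.8, 9.05, 8.603 and 10.7 CPM in miR-690oe, with the groups mixed. In log2 CPM the difference for Isg15 was -0.10 ± 0.09 (SE, limma adjusted p = 0.369), with a 95% interval of -0.30 to 0.09, and 0.11 (limma adjusted p = 0.458) trend-removed. Ifit2, of a family that binds foreign RNA ends, measured 18.2, 14.6, 20.1 and 19.1 CPM in controls and 21.4, 19.3, 20.5 and 19.2 CPM in miR-690oe, where control replicate 2 was the lowest library and the others mostly overlapped. Its log2 fold change of 0.16 ± 0.084 (SE, limma adjusted p = 0.127) did not pass. Trim21, an antibody receptor and ubiquitin ligase of the cytosol, measured 9.12, 7.97, 9.61 and 9.73 CPM in controls and 10.5, 9.36, 9.56 and 10.3 CPM in miR-690oe, again with overlap, at 0.12 ± 0.08 (SE, limma adjusted p = 0.236). Ifit1, Ifit3 and Oasl2 had log2 fold changes of 0.10, -0.08 and 0.03 with limma adjusted p values of 0.395, 0.522 and 0.81.

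The genes of the 3 guanylate-binding proteins, GTPases that attack the vacuoles of intracellular pathogens, lie on chromosome 3. Of these genes 1 was higher (33.3%, against 26.0% of all genes) and 2 did not pass. Gbp7, at chr3:142530342-142550149 on the plus strand, measured 9.77, 10.3, 12.3 and 10.3 CPM in controls and 16.2, 12.6, 13.7 and 12.6 CPM in miR-690oe. All miR-690oe libraries were above the controls, replicate 1 by far and replicates 2 and 4 only just above control replicate 3. Its log2 fold change of 0.35 ± 0.09 (SE, limma adjusted p = 0.00526) was the largest of any member, and was 0.11 (limma adjusted p = 0.396) trend-removed.

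Gbp2, at chr3:142620602-142638008 on the plus strand, measured 13.96, 15.9, 14.1 and 16.1 CPM in controls and 12.5, 13.9, 12.4 and 13.8 CPM in miR-690oe. Here every miR-690oe library was below every control, by a small margin. The limma fit put the log2 fold change of Gbp2 at -0.18 ± 0.072 (SE, limma adjusted p = 0.0535), just short of the threshold, and -0.19 (limma adjusted p = 0.0608) trend-removed. It was called lower with trimmed-mean scaling, median-of-ratios scaling, quantile normalization and array weights, as were Irf3, Tap1 and Tapbp. Gbp3 measured 10.9, 9.86, 11.2 and 12.6 CPM in controls and 12.3, 12.3, 11.8 and 11.02 CPM in miR-690oe with full overlap, at 0.09 ± 0.078 (SE, limma adjusted p = 0.386). The ratio of Gbp7 to Gbp2, chosen after the values were seen, was 0.637 to 0.876 in control libraries and 0.904 to 1.29 in miR-690oe libraries. Their sequences are alike, as are those of the Ifit genes, and reads shared between such copies could be split by the authors' counting. The sum of Gbp2, Gbp3 and Gbp7 was 36.8 ± 1.86 CPM in the control and 38.8 ± 1.57 CPM in the miR-690oe libraries, and that of Ifit1, Ifit2 and Ifit3 was 33.32 ± 3.03 and 35.97 ± 1.2 CPM (SD, n = 4 each).

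Parp14, Parp9 and Dtx3l are neighbours on chromosome 16. PARP9 and DTX3L form a complex that adds ADP-ribose and ubiquitin to other proteins, and PARP14 is a larger ADP-ribosyltransferase. Parp14 measured 18.9, 18.7, 21.5 and 21.2 CPM in controls and 27.7, 23.1, 24.1 and 21.9 CPM in miR-690oe. The groups were apart, with replicate 1 of miR-690oe the highest and replicate 4 close to the upper controls. On the log2 scale the difference for Parp14 was 0.26 ± 0.074 (SE, limma adjusted p = 0.00932), and -0.04 (limma adjusted p = 0.706) trend-removed, where the sign turned.

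Parp9 measured 41.4, 41.9, 38.1 and 41.7 CPM in controls and 42.2, 43.8, 45.2 and 41.2 CPM in miR-690oe, with overlap. Its log2 fold change of 0.08 ± 0.052 (SE, limma adjusted p = 0.228) did not pass. Dtx3l measured 14.9, 15.9, 18.4 and 19.2 CPM in controls and 23.02, 18.3, 18.3 and 14.99 CPM in miR-690oe and had the widest spread of the 3, with replicate 1 of miR-690oe above and replicate 4 near the bottom of the control range. This gave Dtx3l a log2 fold change of 0.12 ± 0.105 (SE, limma adjusted p = 0.393). Dtx3l and Parp9 overlap by 367 exonic bases on opposite strands, and with the strand setting of the counting not given in the sources used here, reads from that stretch cannot be told apart.

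Of the 4 other interferon-induced genes, Ifi35, Xaf1 and Ifi27 were lower (75%, against 17.4% of all genes) and Lgals3bp did not pass. Ifi27 and Ifi35 have short transcripts, of 977 and 1362 nt. Of all genes up to 1000 nt 62.5% were lower, and of those of 1000 to 2000 nt 42.3%. Xaf1 and Lgals3bp, at 2597 and 2330 nt, are in a range where 16.3% were lower. The median log2 fold change of the class was -0.169, and 0.007 trend-removed. XAF1 antagonizes the apoptosis inhibitor XIAP, IFI27 is a small membrane protein strongly induced by type I interferon in human tissue, and IFI35 binds the interferon-induced protein NMI. Xaf1 measured 10.1, 9.79, 10.1 and 9.49 CPM in controls and 8.61, 8.57, 7.99 and 8.91 CPM in miR-690oe, with all miR-690oe libraries below all controls and replicate 3 the lowest. In log2 CPM the difference for Xaf1 was -0.20 ± 0.071 (SE, limma adjusted p = 0.0305), and -0.21 (limma adjusted p = 0.0389) trend-removed. The call of Xaf1 was lost in the first fit without control replicate 1, 2 or 3 or miR-690oe replicate 2 or 3 (limma adjusted p up to 0.0763). In the trend-removed fit it held in 2 of 8 fits that left out 1 library, with limma adjusted p values from 0.0474 to 0.0889.

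Ifi35 measured 44.9, 41.2, 39.6 and 41.9 CPM in controls and 36.8, 35.6, 37.2 and 37.5 CPM in miR-690oe. The miR-690oe libraries were tightly grouped below the controls. The limma fit put the log2 fold change of Ifi35 at -0.18 ± 0.052 (SE, limma adjusted p = 0.00906), and -0.02 (limma adjusted p = 0.776) trend-removed. Ifi27 measured 189.5, 184.7, 177.8 and 185.0 CPM in controls and 158.5, 168.1, 160.2 and 175.6 CPM in miR-690oe, where replicate 4 came closest to the lowest control without reaching it. On the log2 scale the difference for Ifi27 was -0.15 ± 0.044 (SE, limma adjusted p = 0.0104), and turned to 0.04 (limma adjusted p = 0.492) trend-removed. Lgals3bp, a secreted galectin-binding glycoprotein, measured 222.3 ± 3.92 CPM in the control and 219.1 ± 5.27 CPM in the miR-690oe libraries (SD, n = 4 each), with a log2 fold change of -0.02 ± 0.04 (SE, limma adjusted p = 0.691).

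Of the 6 genes of MHC class I and peptide loading, H2-D1 and B2m were lower and the other 4 did not pass. The share lower was 33.3%, against 17.4% of all genes. All 6 had log2 fold changes below 0, although that of H2-K1 was above 0 trend-removed. Their summed level was 897.4 to 937.9 CPM in control libraries and 798.9 to 867.4 CPM in miR-690oe libraries. B2m was the largest part of this sum, with means of 383.0 CPM in control and 352.2 CPM in miR-690oe libraries. The median log2 fold change of the 6 genes was -0.109, and -0.072 trend-removed, where none of them was called. H2-K1 and H2-D1 encode the class I heavy chains, B2m the light chain beta-2-microglobulin that every class I molecule needs, Tap1 and Tap2 the peptide pump of the endoplasmic reticulum, and Tapbp the chaperone tapasin that joins the pump to empty class I.

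H2-D1 measured 169.3, 169.0, 169.6 and 167.0 CPM in controls and 152.6, 145.3, 147.9 and 158.0 CPM in miR-690oe. The controls were almost the same in all 4 libraries and every miR-690oe library lay below them. This gave H2-D1 a log2 fold change of -0.16 ± 0.041 (SE, limma adjusted p = 0.00522), and -0.08 (limma adjusted p = 0.124) trend-removed. H2-K1 measured 121.6, 122.0, 127.9 and 117.9 CPM in controls and 117.0, 110.7, 110.9 and 125.4 CPM in miR-690oe, where replicate 4 of miR-690oe stood among the upper controls. In log2 CPM the difference for H2-K1 was -0.08 ± 0.049 (SE, limma adjusted p = 0.21), with a 95% interval of -0.18 to 0.03, and 0.06 (limma adjusted p = 0.325) trend-removed. These heavy chain genes are near-identical over long stretches, so their separate values are uncertain. Their sum was 291.1 ± 5.16 CPM in the control and 266.9 ± 12.4 CPM in the miR-690oe libraries (SD, n = 4 each), with all miR-690oe libraries, up to 283.3 CPM, below the lowest control at 284.9 CPM.

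B2m measured 387.9, 364.8, 392.3 and 387.0 CPM in controls and 352.1, 326.4, 372.3 and 358.0 CPM in miR-690oe. Replicate 3 of miR-690oe reached above the lowest control, and replicate 2 was the lowest of all. The limma fit put the log2 fold change of B2m at -0.12 ± 0.046 (SE, limma adjusted p = 0.0424), and -0.009 (limma adjusted p = 0.925) trend-removed, and the call was lost without control replicate 1, 3 or 4 or miR-690oe replicate 1 or 2 (limma adjusted p up to 0.138). Tap1 measured 28.04, 27.2, 28.1 and 28.1 CPM in controls and 27.8, 23.8, 24.3 and 25.02 CPM in miR-690oe, with replicate 1 of miR-690oe level with the controls and the other replicates below. On the log2 scale the difference for Tap1 was -0.14 ± 0.059 (SE, limma adjusted p = 0.056), and -0.12 (limma adjusted p = 0.128) trend-removed. Tap2 and Tapbp had -0.09 ± 0.064 (SE, limma adjusted p = 0.294) and -0.10 ± 0.046 (SE, limma adjusted p = 0.1). Tap1 overlaps Psmb9 by 212 bases on the opposite strand, and Tapbp overlaps the antisense gene Gm19412 by 682 bases.

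**Figure D4:**
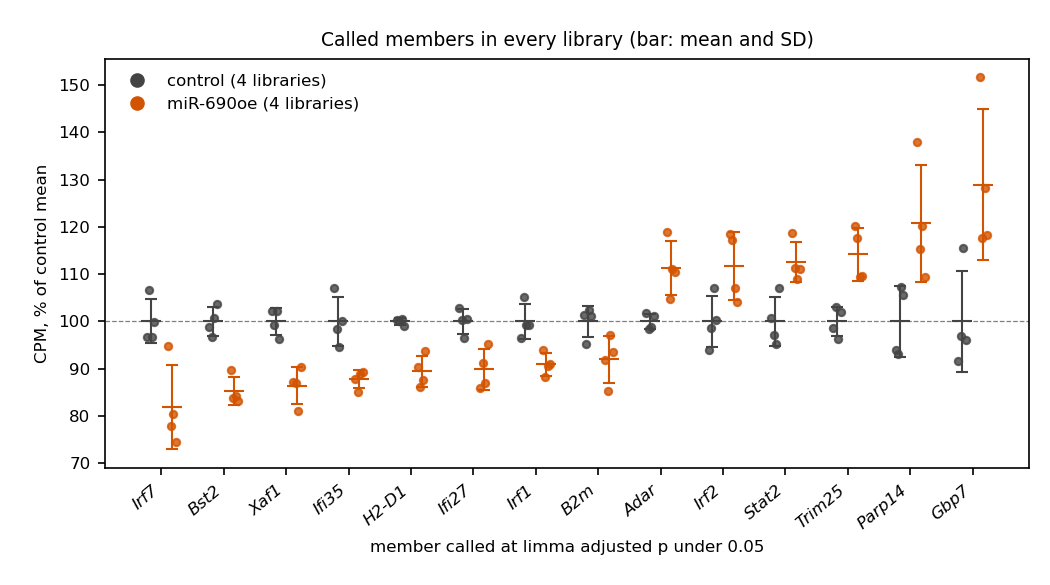
The 14 called members are ordered by log2 fold change; each point is a library, given as CPM in percent of the control mean (vertical axis), and bars show the mean and SD of 4 libraries per group. The mean of miR-690oe runs from 0.819 of the control mean for Irf7 to 1.29 times for Gbp7, and the groups overlap for B2m and Irf2.

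Per kb of transcript, the levels of the members spanned a wide range, and B2m, H2-D1, H2-K1 and Tapbp were among the most abundant. Tap1 and Tap2 stood lower, at 9.44 and 8.55 CPM per kb in controls. B2m was highest at 445 CPM per kb in controls and 410 CPM per kb in miR-690oe. Ifi27 followed with 189 and 170 CPM per kb, Lgals3bp with 95.4 CPM per kb in controls, H2-D1 with 80.3 and 71.8 and H2-K1 with 75.6 and 71.7 CPM per kb. Gbp7 was the lowest at 1.90 CPM per kb in controls and 2.45 CPM per kb in miR-690oe, next to Ifit3 at 2.54 and 2.39 CPM per kb. Isg15 stood at 13.9 CPM per kb and Stat2 at 8.91 CPM per kb in controls. Of 33 neighbouring pairs in this order, 17 overlapped in the range of their control libraries, among them Tapbp and Bst2, Irf1 and Ifi35, and Tap1, Stat2 and Tap2.

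**Figure D5:**
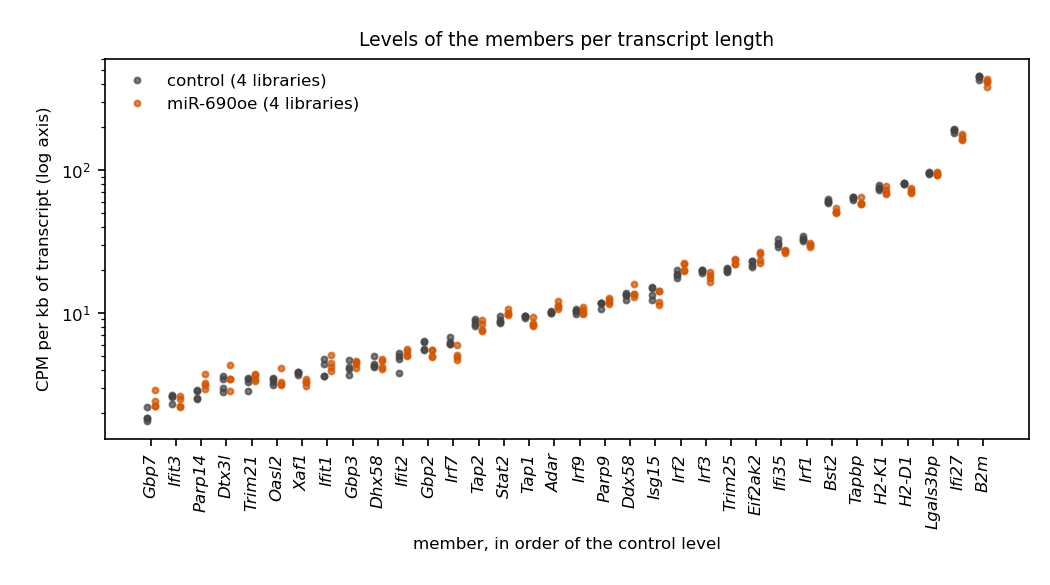
Members are ordered by their control level in CPM per kb of longest coding transcript (vertical log axis); each point is a library. The order runs from Gbp7 at 1.90 to B2m at 445 CPM per kb, and the control and miR-690oe points of a member lie close together on this scale.

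Members with an ISRE match were spread over the calls. It was present in 3 of the 5 members called higher that had a promoter window, in 2 of the 7 called lower and in 8 of the 17 not called. The median log2 fold change was 0.088 over the 13 members with a match and -0.087 over the 16 without. GAS matches were present in 3 of 5 higher, 3 of 7 lower and 2 of 17 not called members, with medians of 0.144 with a match and -0.078 without. These medians are from the first fit, which holds the length trend. Trend-removed, no member with a match of either kind was called. The values then ran from -0.193 (Gbp2) to 0.147 (Irf2) with an ISRE match and from -0.057 (Irf1) to 0.147 (Irf2) with a GAS match. Whether motifs and fold changes are linked was not tested. The promoters shown above for Gbp7 and Bst2 hold both motifs, and the fold changes of these genes have opposite signs.

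Upstream of the members, the receptors, JAK kinases, STATs and feedback inhibitors were measured for all 15 listed genes, of which 3 (20%) were called, each of them higher, where 43.4% of all genes were called (26.0% higher), with a median log2 fold change of 0.034. Jak2, a kinase of the interferon gamma receptor, had 0.24 ± 0.046 (SE, limma adjusted p = 0.000584). Pias1, an inhibitor of the pathway, had 0.20 ± 0.051 (SE, limma adjusted p = 0.00581), and the type I receptor chain Ifnar1 0.13 ± 0.041 (SE, limma adjusted p = 0.021). Jak2, Pias1 and Ifnar1 had 0.05, -0.04 and 0.07 trend-removed and were not called.

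Among the 16 measured of 18 listed genes of nucleic acid sensing, 8 were higher and 1 was lower (50% and 6.25%, with the background of 26.0% and 17.4% given above). Traf3, an adaptor between RNA sensors and the kinases that activate IRF3, had 0.45 ± 0.062 (SE, limma adjusted p = 4.68e-05), and kept its call trend-removed at 0.23 (limma adjusted p = 0.0147). Traf6, a ubiquitin ligase of Toll-like receptor signalling, had 0.22 ± 0.058 (SE, limma adjusted p = 0.00613), the RNA-binding helicase Znfx1 0.17 ± 0.049 (SE, limma adjusted p = 0.00846), and Cgas, the cytosolic DNA sensor, 0.28 ± 0.085 (SE, limma adjusted p = 0.0132). Trend-removed, Traf6, Znfx1 and Cgas had -0.03, -0.05 and 0.17 and were not called, and 1 gene of this list was higher and 1 lower.

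Of 69 other interferon-stimulated genes listed, 46 were measured, and of these 6 were higher and 8 lower (13.0% and 17.4%, against 26.0% and 17.4% of all genes), with a median log2 fold change of -0.023. Slfn9, a Schlafen family gene, had 0.49 ± 0.068 (SE, limma adjusted p = 5.19e-05), and Trim56, a ubiquitin ligase of antiviral signalling, 0.59 ± 0.106 (SE, limma adjusted p = 0.000424). Both remained called trend-removed, at 0.25 and 0.27 (limma adjusted p = 0.00879 and 0.0478), and they were the 2 genes of this list that were. Ifitm2, which blocks viral entry by membrane fusion, had -0.24 ± 0.048 (SE, limma adjusted p = 0.000901), and Tor1a, an ATPase of the endoplasmic reticulum, -0.22 ± 0.049 (SE, limma adjusted p = 0.00235). Trend-removed, the values of Ifitm2 and Tor1a were -0.02 and -0.06, and neither was called.

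Of 25 other genes listed for MHC class I and antigen processing, 20 were measured, and of these 4 were higher and 7 lower (20% and 35%, against 26.0% and 17.4% of all genes), with a median of -0.124. The genes that fell included proteasome parts, with -0.27 ± 0.045 (SE, limma adjusted p = 0.000218) for Psme1, of the activator PA28, and -0.28 ± 0.057 (SE, limma adjusted p = 0.000871) for Psmb10, an immunoproteasome subunit. Those that rose included Lnpep, an aminopeptidase with a transcript of 12052 nt, at 0.68 ± 0.089 (SE, limma adjusted p = 3.06e-05), and Canx, the chaperone calnexin, at 0.23 ± 0.039 (SE, limma adjusted p = 0.000236). Trend-removed, Lnpep was the 1 gene of this list called, at 0.23 (limma adjusted p = 0.0266), and Psme1, Psmb10 and Canx had -0.09, -0.12 and 0.08.

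Markers of other cells and of the adipocyte state stood as follows, and their part in the results on the members was not tested. MHC class II was low. Of 7 listed genes 2 were measured, and their sum was 5.95 to 7.78 CPM in the control and 5.55 to 6.79 CPM in the miR-690oe libraries. Of 7 macrophage markers 3 were measured, and Ptprc, Adgre1, Csf1r and Cx3cr1 were not analysed here. The sum of the 3 was 24.1 to 27.9 CPM in the control and 21.4 to 24.1 CPM in the miR-690oe libraries. Cd14 and Lyz2 were lower (66.7% of the 3, against 17.4% of all genes). Their log2 fold changes were -0.19 ± 0.069 (SE, limma adjusted p = 0.031) and -0.26 ± 0.103 (SE, limma adjusted p = 0.0476). Trend-removed, Cd14 and Lyz2 had -0.07 and -0.15 and were not called. Cd68 had 0.02 and did not pass. None of the 5 lymphocyte markers and 1 of 4 endothelial markers was measured. All 12 adipocyte markers were measured, with sums of 12150 to 13440 CPM in the control and 10480 to 13910 CPM in the miR-690oe libraries. Agpat2, Cidec and Cfd were lower (25% of the 12, against 17.4% of all genes). Trend-removed, Agpat2, Cidec and Cfd had -0.11, -0.07 and -0.01 and were not called. Lpl, Cd36 and Slc2a4 had positive log2 fold changes (0.10, 0.135 and 0.01) and the other markers negative ones, and none of these passed. Of 8 preadipocyte markers 7 were measured. Their sums were 3507 to 4087 CPM in the control and 3363 to 4496 CPM in the miR-690oe libraries. Prrx1, Pdgfra and Pdgfrb were higher (42.9% of the 7, against 26.0% of all genes). Their transcripts are over 5000 nt, a range where 73.9% of all genes were higher. Trend-removed, Prrx1, Pdgfra and Pdgfrb had 0.04, -0.02 and 0.04 and were not called. In the first fit the other 4 did not pass, with 0.08 for Col1a1 and -0.12, -0.12 and -0.155 for Thy1, Dlk1 and Ly6a. Trend-removed, 1 gene of these marker lists was called, the preadipocyte gene Dlk1, chosen after its values were seen, at -0.21 (limma adjusted p = 0.0327).

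The libraries held 29773446 to 38235522 reads over the listed genes, and the member with the fewest reads in a library had 128 to 168, a counting error of 7.72% to 8.84% of its value in 1 library if reads are independent molecules. The first principal component of all genes, with 59.9% of the variance, separated the groups, and miR-690oe replicate 1 stood farthest out and had the lowest array weight, 0.459. Nadk, the NAD kinase gene that published work names as a target of miR-690, was at 0.911 of the control level (log2 fold change -0.13 ± 0.042, SE, limma adjusted p = 0.0174). Its call was lost without control replicate 2 or 4 (limma adjusted p up to 0.0695). Trend-removed, Nadk had -0.13 (limma adjusted p = 0.0361). Of all genes 17.4% were lower in the first fit and 9.09% trend-removed. Exons of Adar overlap those of Chrnb2 by 1365 bases and exons of Ifi35 those of Gm11626 by 237 bases, both on opposite strands, and on the same strand Gbp7 overlaps the pseudogene Gm43802 by 637 bases, Irf9 overlaps Rnf31 by 123 bases and Parp14 overlaps Gm49730 by 110 bases. Without miR-690oe replicate 1, 5 members were higher and 9 lower, where 40.1% of all genes were called (24.6% higher and 15.5% lower). Array weights gave 6 higher and 12 lower, where 45.0% of all genes were called (26.7% higher and 18.2% lower).

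The authors' deposited table carries its own test, with a false discovery rate for each gene. At a rate under 0.05 the authors' deposited table called 6 members higher, the same 6 genes, and 11 lower, against a background of 45.3% of its 10663 entries (24.7% higher and 20.6% lower). The 3 further genes lower in the authors' deposited table were Irf3, Gbp2 and Tap1, at false discovery rates of 0.0328, 0.0212 and 0.0336. The authors' deposited table gave log2 fold changes of 0.35 for Gbp7 and -0.30 for Irf7, the highest and the lowest among the members there.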

How the data were processed

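RNA sequencing values of 8 libraries of 3T3-L1 adipocytes, 4 control and 4 miR-690oe, were analysed. The members and gene lists were chosen with earlier results of these data known. Trimmomatic 0.38, edgeR 3.20.9 and build mm10 appear in the submitters' processing notes without a role. Aligner, counter and strand setting were not given in the sources used here. Values deposited by the authors are named as RPKM, but each library's column sums to 1000000 and every value is a whole multiple of 1 step per library, so they were taken as CPM over the listed genes. The steps, with 100% of values whole within 0.1 read, gave the depth, and no count model was fitted. Per the file headers, the authors also deposited for each gene their log2 fold change, average log2 CPM, likelihood ratio (a score), p-value and false discovery rate.

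Genes with at least 0.5 CPM in at least 4 of 8 libraries were kept, which left 10658 of 10663. The test was limma 3.58.1 (R 4.3.3) on log2(CPM + 0.5) values (lmFit and eBayes with a trend, two-sided, Benjamini-Hochberg over all genes, threshold 0.05). A fold change on this scale understates changes of low genes. Symbols in the table are in capitals and were matched to GENCODE M21 (10615 entries, 140 by an older symbol), and length and GC content were taken from the longest basic coding transcript, and adipocytes may use another. In the trend-removed fit, natural splines with 5 degrees of freedom each in log length and GC content were subtracted from each library. Promoters and the microRNA came from RefSeq tables of GRCm38.p6. Values in every library are given for the 3 members with the lowest adjusted p in each of 7 role classes and for Stat2, Irf7, Irf9, Isg15, B2m, H2-K1 and H2-D1. Up to 4 called genes with the lowest adjusted p are named from each related list, and 1 gene is not reported here. Alternatives covered pseudocount, filter, scaling, variance model, array weights, replicate block, length and GC trend, threshold and leaving out each library.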

Additional observations from a re-analysis of the deposited data

Results flagged for a closer look

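In 4 of 68 groups of 4 libraries, 1 library stood apart from the other 3 by more than Dixon's critical value for 4 samples, which chance gives in about 1 in 20 groups. Bst2 was 43.0 CPM in miR-690oe replicate 1, against 39.9 to 40.3 CPM in the other miR-690oe libraries. Oasl2 was 12.9 CPM in miR-690oe replicate 1, against 9.85 to 10.2 CPM in the others. Parp9 was 38.1 CPM in control replicate 3, against 41.4 to 41.9 CPM in the other controls. Tap1 was 27.2 CPM in control replicate 2, against 28.0 to 28.1 CPM in the other controls.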

How the results depend on the processing

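With pseudocounts of 0.1 or 1, no filter or a filter at 5 CPM, 6 members were higher and 8 lower, the same genes as at the settings reported. With the trend over length and GC content removed, limma called 1746 genes, with 0 members higher and 1 lower; with the replicate block as well it called 1212, with 0 and 0. Trend-removed, the sign turned for 10 members, 3 of them called before and 7 not. In both of these fits the sign turned for these genes called before: Adar (-0.017), Parp14 (-0.038), Ifi27 (0.038), Pias1 (-0.043), Traf6 (-0.032), Znfx1 (-0.051) and Pdgfra (-0.018). At a threshold of 0.01, 3047 genes, 3 higher and 4 lower members remained. Quantile normalization gave 3 members higher and a member median of -0.056, and lost Adar, B2m, Irf2 and Stat2. Leaving out 1 library at a time gave 3756 to 4811 genes called, 3 to 7 members higher, 5 to 11 lower and a member median of -0.05 to 0.002, and Irf7, Trim25, Bst2, Gbp7, Parp14, Ifi35, Ifi27 and H2-D1 were called in all 8 such fits. The members higher were 3 without control replicate 2, and the members lower 5 without miR-690oe replicate 2. Same-numbered libraries did not deviate together (correlations of -0.301, 0.312, -0.1 and -0.327, and only replicate 2 went best with its own number), so the numbers were not taken as pairs; with the replicate block 4209 genes, 5 higher and 6 lower members were called. The cause of these differences was not tested. The planned count tests, edgeR and DESeq2, were not run. The deposited values are scaled to CPM, and the reads recovered from their steps were not accepted as counts.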
